A study of Homo sapiens with 6 samples.

Results

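The genes described are 10 receptor tyrosine kinases outside the ERBB family: MET, MST1R, AXL, TEK, CSF1R, FGFR1, FGFR2, FGFR3, IGF1R and DDR1. They were chosen by name, with earlier results of these data known. Each was read from the probe set that carries its symbol alone, the brightest one where a gene had several. All 10 were measured, among 18377 genes in all. Values are the authors' log2 probe set values from 6 Affymetrix HuGene-1_0-st-v1 arrays, so a difference of 1 is a doubling or halving. The cells were MCF10A-HER2/3, a derivative of the non-tumorigenic human mammary epithelial line MCF10A, grown for 15 days in three-dimensional culture. All 3 groups were grown in medium with EGF, insulin, cholera toxin, hydrocortisone and horse serum, received doxycycline from the day after seeding, and carried a doxycycline-inducible lentiviral vector. That vector encoded CTRL miR in the control group, SHP2 miR1 in the second group and SHP2 miR2 in the third, with 2 arrays each. How the HER2/3 derivative was made, and whether the transduced cells were clones, is not given in the sources used here. No label ties the 2 arrays of a group to separate cultures, and the p-values rest on the spread between arrays, which may be technical.

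Receptor tyrosine kinases sit in the cell membrane. A ligand activates them, their kinase domains phosphorylate tyrosines on the receptor and on docking proteins, and proteins with SH2 domains bind there. SHP2, a tyrosine phosphatase encoded by PTPN11, is one of these and is known for passing receptor signals to the RAS-ERK cascade, through GAB1 for MET and FRS2 for the FGF receptors. In the breast, MET and the FGF receptors are known for responding to factors of the stroma during branching, while TEK is best known from endothelium and CSF1R from macrophages. The comparison asks whether the transcripts of these receptors themselves differ when SHP2 is lowered.

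The targeted gene checked the labels. PTPN11 read 7.96 and 8.44 in the controls, against 6.04 and 5.71 for SHP2 miR1 and 6.90 and 7.28 for SHP2 miR2, so all 4 SHP2 miR arrays lay below both controls and SHP2 miR1 lay lowest. Array medians ran from 5.23 to 5.35, and replicates correlated across genes at r = 0.985 to 0.986. Values spread with a standard deviation of 1.92 to 2.02 per array, lowest on both SHP2 miR1 arrays. Of 8 epithelial markers 6 were measured, all above the 40th percentile of probe sets (a value of 4.76, used here to call a gene dim), including EPCAM and KRT5. KRT17 and TP63 were not analysed here.

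Averaged over both SHP2 miRs, AXL, TEK and CSF1R fell, FGFR3 rose, and the other 6 receptors did not pass the threshold. That is 4 of 10 receptors, where 4.20% of all genes passed (limma, adjusted p under 0.05 over all genes), 1.53% higher and 2.67% lower. With SHP2 miR1 alone, MET, AXL, TEK and CSF1R fell and FGFR3 rose, 5 of 10 against 8.60% of all genes, 2.66% higher and 5.94% lower. With SHP2 miR2 alone 0 of 10 passed in limma, against 0.370% of all genes (0.190% higher, 0.180% lower), and 5 had an unadjusted p under 0.05, as did 11% of all genes. The targeted gene PTPN11 also missed the threshold with SHP2 miR2, at -1.11 (SE 0.22, 2.16-fold, limma adjusted p = 0.0813). The median difference of the 10 receptors was -0.17 on average, -0.34 with SHP2 miR1 and -0.08 with SHP2 miR2, beside medians over all genes of 0.02, 0.04 and -0.01. The median size of the difference, whatever its sign, was 0.48 for the receptors and 0.18 for all genes in the averaged comparison. The comparisons of SHP2 miR1 and of SHP2 miR2 share their 2 control arrays. Because the members were chosen with earlier results known, their counts beside the shares of all genes are a description only. The receptors are described below in order of family.

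**Figure D1:**
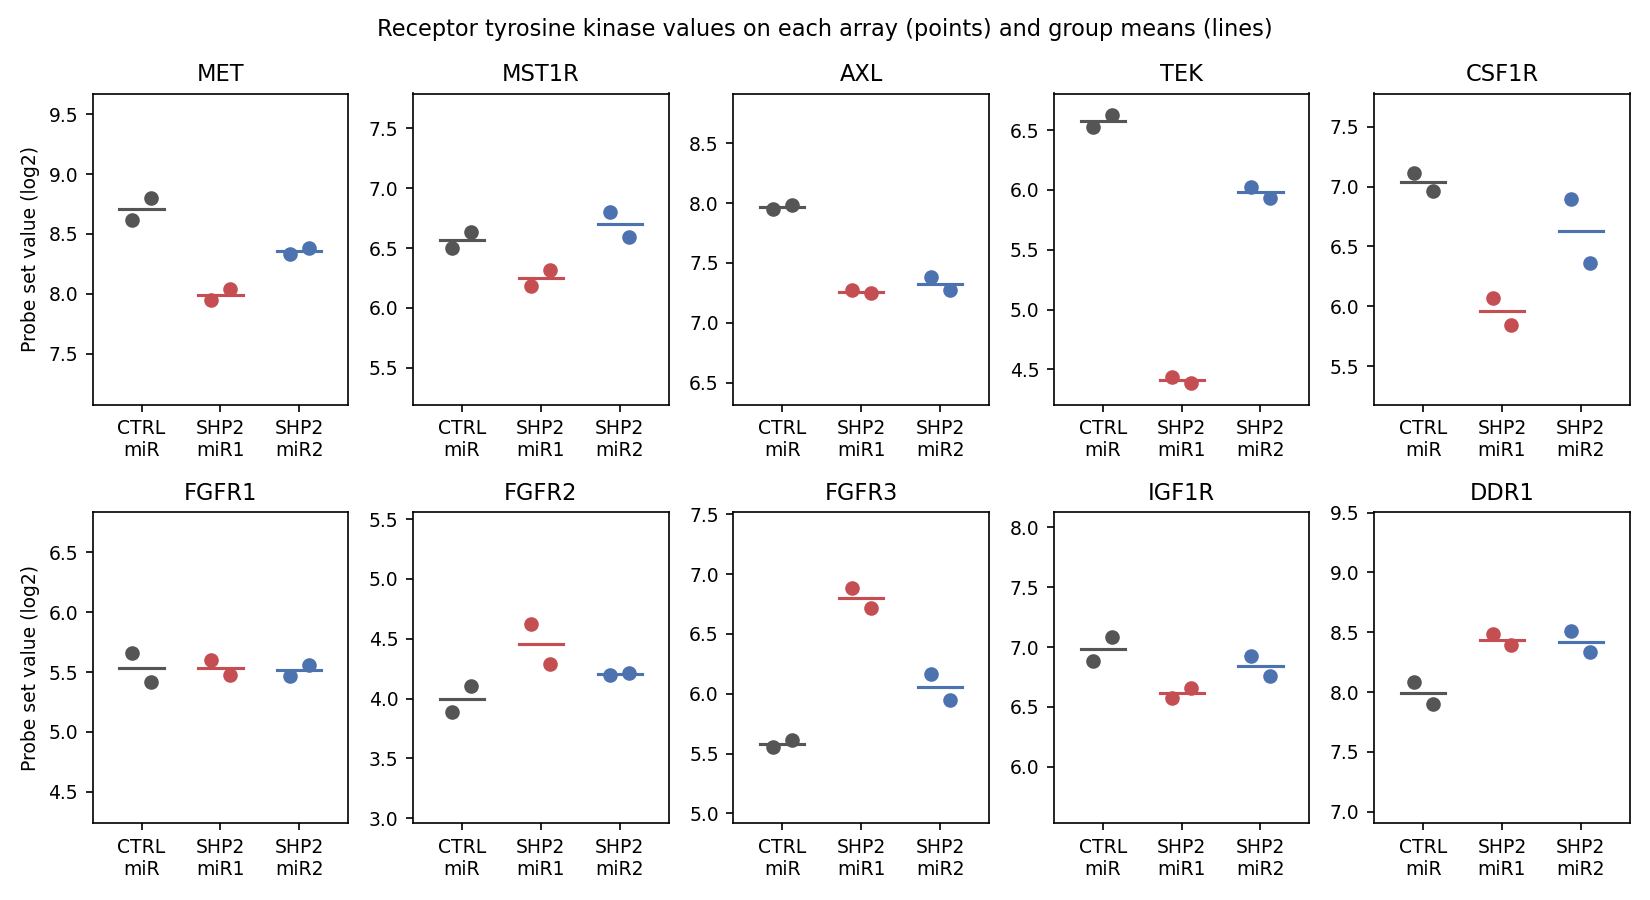
Log2 probe set value (vertical axes, each spanning the same range) of the 10 receptors on each array (points), with group means (lines). TEK on the SHP2 miR1 arrays lies at 4.44 and 4.39 against 6.52 and 6.62 on the controls, and FGFR3 rises from 5.56 and 5.61 to 6.88 and 6.72.

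MET is the receptor for hepatocyte growth factor. Its values were 8.61 and 8.80 on the controls, 7.95 and 8.04 under SHP2 miR1 and 8.34 and 8.38 under SHP2 miR2. No groups overlapped, with the controls highest and SHP2 miR1 lowest. MET fell with SHP2 miR1 by 0.71 (SE 0.15, 1.64-fold, adjusted p = 0.0237). The averaged difference was -0.53 (SE 0.13, 95% interval -0.82 to -0.24, adjusted p = 0.0567) and that with SHP2 miR2 was -0.35 (adjusted p = 0.440), neither past the threshold. The averaged difference passed when dim genes were left out (adjusted p = 0.0325) and with a mean-variance trend (adjusted p = 0.00316). It passed in no other alternative run, and adjusted p reached 0.113 where no array was left out. Leaving out an array leaves 1 in its group, and that lone array is assumed to vary like the other groups, here and for every gene below. The SHP2 miR1 call was lost without control replicate 2 (adjusted p = 0.166), without SHP2 miR1 replicate 1 (0.131) or 2 (0.0841), and with the trend over gene span removed (0.0509). MST1R, the closest relative of MET and the receptor for macrophage-stimulating protein, had 6.50 and 6.63 on the controls, 6.18 and 6.31 under SHP2 miR1 and 6.80 and 6.59 under SHP2 miR2. Only the SHP2 miR1 arrays lay below both controls, and the SHP2 miR2 arrays overlapped them. Its averaged difference was -0.09 (95% interval -0.40 to 0.21, adjusted p = 0.729).

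AXL, the receptor for the vitamin K-dependent ligand GAS6, had 7.95 and 7.98 on the controls. It had 7.27 and 7.25 under SHP2 miR1 and 7.38 and 7.28 under SHP2 miR2. All 4 SHP2 miR arrays lay well below the controls, and both SHP2 miR groups lay close to each other. AXL fell by 0.67 on average (SE 0.12, 1.60-fold, adjusted p = 0.0196) and by 0.71 with SHP2 miR1 (SE 0.14, adjusted p = 0.0205). Under SHP2 miR2 alone it had much the same size, -0.64 (SE 0.14, 95% interval -0.97 to -0.32), but missed the threshold (adjusted p = 0.124). SHP2 miR2 minus SHP2 miR1 was 0.07 (95% interval -0.26 to 0.39, adjusted p = 0.831), with a sign that turned under quantile and cyclic loess normalization. The averaged call held without SHP2 miR2 replicate 1 (adjusted p = 0.0487). It was lost without control replicate 1 (0.0894) or 2 (0.177), SHP2 miR1 replicate 1 (0.0531) or 2 (0.0563), and SHP2 miR2 replicate 2 (0.0537). The SHP2 miR1 call was lost without either control (0.0558 and 0.134) or either SHP2 miR1 array (0.0988 and 0.0985).

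TEK, the angiopoietin receptor also called TIE2, had the largest difference among the 10 on average and with SHP2 miR1, while AXL had it with SHP2 miR2. Its values were 6.52 and 6.62 on the controls, 4.44 and 4.39 under SHP2 miR1 and 6.03 and 5.93 under SHP2 miR2. The groups were fully apart, with SHP2 miR2 between the controls and SHP2 miR1, and replicates lay close together. TEK fell by 1.38 on average (SE 0.13, 2.60-fold, adjusted p = 0.000867) and by 2.16 with SHP2 miR1 (SE 0.15, 4.47-fold, adjusted p = 0.000134). By size, the SHP2 miR1 difference ranked 14 among the 8439 genes with a negative difference. For SHP2 miR2 it was -0.59 (SE 0.15, 95% interval -0.92 to -0.26, adjusted p = 0.157) and did not pass. With each array left out, under the same assumption, both calls stayed past the threshold, and adjusted p reached 0.0248 on average and 0.00507 for SHP2 miR1. The SHP2 miR1 arrays lay under the value of 4.76 that marks a dim gene here, at percentile 32.1 of all probe sets, while the control mean stood at percentile 71.1. No measure of background was used here, so whether a level this low is only a bound is unknown, and the fold and rank hold for the deposited values alone.

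CSF1R, the receptor for colony-stimulating factor 1, had 7.11 and 6.97 on the controls, 6.07 and 5.85 under SHP2 miR1 and 6.89 and 6.36 under SHP2 miR2. All 4 SHP2 miR arrays were below both controls, SHP2 miR1 was lowest, and the SHP2 miR2 arrays stood further apart than other replicates of this gene. CSF1R fell by 0.75 on average (SE 0.17, 1.68-fold, adjusted p = 0.0463) and by 1.08 with SHP2 miR1 (SE 0.20, 2.12-fold, adjusted p = 0.0143). With SHP2 miR2 it was -0.41 (95% interval -0.86 to 0.04, adjusted p = 0.495). The averaged call held without SHP2 miR2 replicate 1 (adjusted p = 0.0315). It was lost without control replicate 1 (0.167) or 2 (0.255), SHP2 miR1 replicate 1 (0.0661) or 2 (0.101), or SHP2 miR2 replicate 2 (0.0809), and with quantile (0.0673) or cyclic loess (0.0653) normalization, array weights (0.0556), all probe sets tested (0.0851) and the trend over gene span removed (0.0735). The SHP2 miR1 call was lost without control replicate 1 (0.0602) or 2 (0.0924) and without SHP2 miR1 replicate 2 (0.0759).

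Because TEK and CSF1R are best known from other cell types, markers of those cells were read beside them. Of 10 endothelial markers 6 were dim, CDH5, KDR, VWF, TIE1, EMCN and ERG. The mean of that list was 4.71 and 4.60 on the controls, 4.87 and 4.97 under SHP2 miR1 and 4.73 and 4.71 under SHP2 miR2. Both SHP2 miR1 arrays also had the highest medians (5.354 and 5.348) and the lowest standard deviations (1.925 and 1.922) of all arrays. The part of this in a mean of mostly dim genes was not tested. PECAM1, an endothelial adhesion molecule, rose by 0.60 on average (SE 0.14, adjusted p = 0.0422), but by 0.27 when its probe sets were averaged, which did not pass (adjusted p = 0.358). Of 11 measured macrophage markers 7 were dim, CD163, ITGAM, AIF1, C1QA, C1QB, PTPRC and MRC1. Their list mean was 4.98 and 4.95 on the controls, 5.24 and 5.20 under SHP2 miR1 and 5.21 and 4.94 under SHP2 miR2. The part of either list in the differences of TEK and CSF1R was not tested. With SHP2 miR1, CD68, a lysosomal protein, fell by 0.71 (SE 0.16, adjusted p = 0.0272). CD14, a lipopolysaccharide co-receptor, rose there by 1.08 (SE 0.26, adjusted p = 0.0366). Under SHP2 miR2 CD68 read 9.45 and 9.26, against 9.53 and 9.47 on the controls. CD14 read 7.62 and 6.87 under SHP2 miR2, against 6.24 and 6.59 on the controls. In the fibroblast list LUM and PDGFRA were dim. On average 0 of its 8 genes passed in limma, where 4.20% of all genes did. At an unadjusted p under 0.05 stood 0 of them, against 20.9% of all genes. The smallest p-values in the fibroblast list belonged to THY1, at 0.33, and the collagen gene COL1A1, at -0.25. All arrays came from cultures of a mammary epithelial line, and no other cell type is named for them. The marker lists are therefore read as transcripts of that line, not as amounts of other cells. In bulk RNA, fewer cells of the line expressing a gene and less of its RNA per cell cannot be told apart.

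Of the FGF receptors, FGFR3 alone passed the threshold in a comparison with control, and no test compared these receptors with each other. The averaged difference was positive for FGFR2, FGFR3 and FGFR4 and -0.01 for FGFR1. FGFR4, read as a close relative, had 0.39 on average (limma, adjusted p = 0.197), 0.48 with SHP2 miR1 and 0.29 with SHP2 miR2. FGFR3 had 5.56 and 5.61 on the controls, 6.88 and 6.72 under SHP2 miR1 and 6.16 and 5.95 under SHP2 miR2. All 4 SHP2 miR arrays lay above both controls, and SHP2 miR1 lay highest with no overlap. FGFR3 rose by 0.84 on average (SE 0.13, 1.79-fold, adjusted p = 0.0106) and by 1.22 with SHP2 miR1 (SE 0.16, 2.32-fold, adjusted p = 0.00261). With SHP2 miR2 it was 0.47 (SE 0.16, 95% interval 0.12 to 0.82, adjusted p = 0.300). By size, the SHP2 miR1 difference ranked 73 among the 9938 genes with a positive difference. The averaged call was lost without control replicate 1 (adjusted p = 0.0765) or 2 (0.110), and the SHP2 miR1 call held whichever array was omitted (adjusted p no higher than 0.0336).

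FGFR1 had 5.66 and 5.42 on the controls, 5.60 and 5.48 under SHP2 miR1 and 5.47 and 5.56 under SHP2 miR2, with all groups overlapping. Its averaged difference was -0.01, with a 95% interval of -0.32 to 0.29 (adjusted p = 0.976), and its sign turned with the trend over gene span removed. FGFR2 was dim, with 3.89 and 4.10 on the controls, 4.63 and 4.29 under SHP2 miR1 and 4.20 and 4.21 under SHP2 miR2. All 4 SHP2 miR arrays were above both controls, but the averaged difference of 0.33 (95% interval 0.00 to 0.67, adjusted p = 0.236) did not pass. The gene was read from 1 probe set, and the epithelial and mesenchymal forms of FGFR2 were not read apart here.

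IGF1R, the receptor for insulin-like growth factors, had 6.88 and 7.08 on the controls, 6.58 and 6.66 under SHP2 miR1 and 6.92 and 6.76 under SHP2 miR2. The SHP2 miR1 arrays lay below both controls and the SHP2 miR2 arrays overlapped them. Its averaged difference was -0.25 (95% interval -0.56 to 0.05, adjusted p = 0.324), and a second probe set of the gene gave -0.22. DDR1, a receptor for collagens, had 8.08 and 7.90 on the controls, 8.48 and 8.39 under SHP2 miR1 and 8.51 and 8.33 under SHP2 miR2. All 4 SHP2 miR arrays were above both controls and both SHP2 miR groups overlapped each other. The averaged difference of 0.44 (SE 0.13, 95% interval 0.13 to 0.74) did not pass over all genes (adjusted p = 0.113). It was 0.44 with SHP2 miR1 and 0.43 with SHP2 miR2, and the other probe sets of DDR1 gave 0.42 and 0.38 on average. With a mean-variance trend the averaged difference of DDR1 passed (adjusted p = 0.0158), and it did so in no other alternative run.

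**Figure D2:**
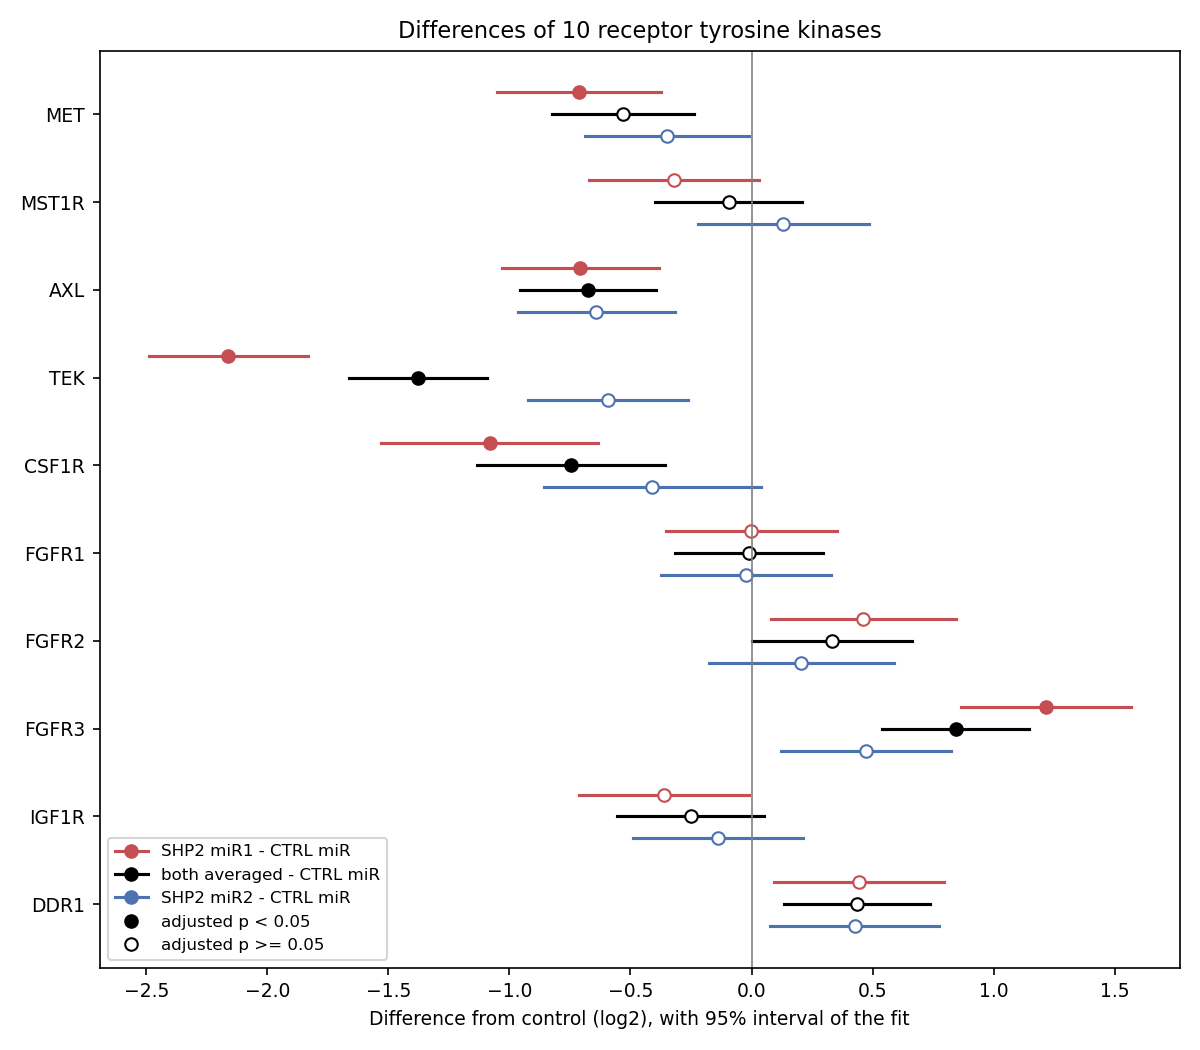
Difference from control on the log2 scale (horizontal axis) with its 95% interval from the fit, for each receptor under SHP2 miR1, both SHP2 miRs averaged, and SHP2 miR2; filled points passed the adjusted threshold. No SHP2 miR2 point is filled, AXL and DDR1 have nearly equal points under both SHP2 miRs, and TEK has the widest gap between them, at -2.16 and -0.59.

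Counted by arrays alone, MET, AXL, TEK and CSF1R had all 4 SHP2 miR arrays below both controls, and FGFR2, FGFR3 and DDR1 had all 4 above. That is 7 of 10, where 26.1% of all genes had all 4 on one side, 13.6% below and 12.6% above. This count too is a description only, given how the members were chosen. The constructs were then compared directly. TEK was higher with SHP2 miR2 than with SHP2 miR1 by 1.57 (SE 0.15, 95% interval 1.24 to 1.90, 2.97-fold, adjusted p = 0.00499), 1 of 10 receptors against 0.190% of all genes (0.152% higher, 0.0381% lower). By size it ranked 7 among the 9196 genes with a positive difference. The SHP2 miR1 side of this comparison is the dim level of TEK given above, so the same limit on its fold and rank applies. The call was lost without SHP2 miR2 replicate 1, where the difference was 1.52 (adjusted p = 0.0735). FGFR3 was -0.74 (SE 0.16, 95% interval -1.10 to -0.39, adjusted p = 0.100), CSF1R was 0.67 (95% interval 0.22 to 1.12, adjusted p = 0.158), MST1R was 0.45 (95% interval 0.10 to 0.80, adjusted p = 0.203) and MET was 0.36 (95% interval 0.03 to 0.70, adjusted p = 0.257). These 4 did not pass over all genes. PTPN11 differed in the same comparison by 1.21 (adjusted p = 0.0645), and its part in the differences of the receptors was not tested.

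**Figure D3:**
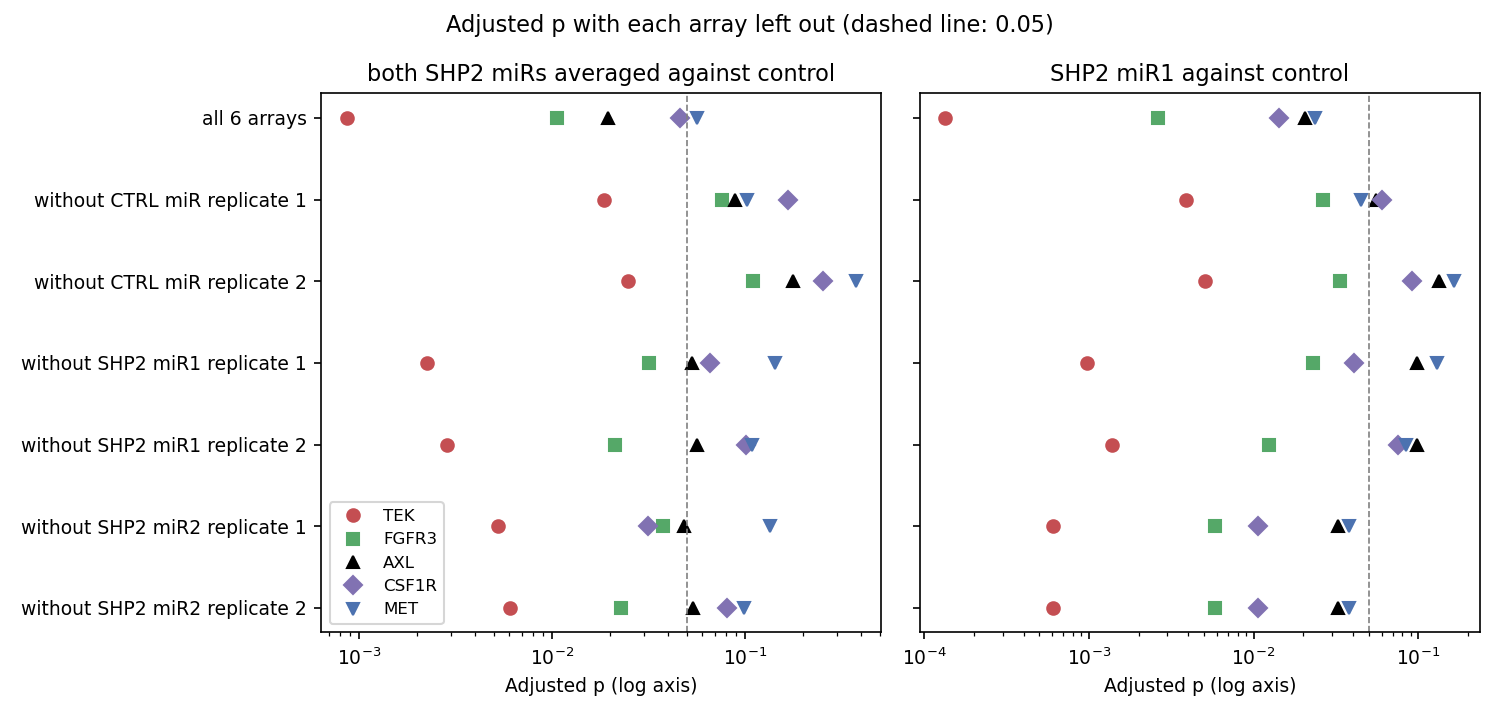
Adjusted p (log axis) of the 5 receptors past the threshold in any comparison with control, with all 6 arrays and after omitting each one; the dashed line marks 0.05. TEK stays left of the line in every setting of both panels, and FGFR3 does so with SHP2 miR1. On average FGFR3 crosses it without either control array, and MET lies right of it throughout. AXL and CSF1R on average lie left of it only with all arrays or without SHP2 miR2 replicate 1. With SHP2 miR1, AXL, CSF1R and MET cross it when certain single arrays are left out.

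The start regions of the receptors that passed a test are shown so that their base composition and motifs can be read beside the values. The sequences are from RefSeq (build GRCh38.p14), which matched 9 of the 10 members, all but FGFR1. Each line gives the 250 bases before the annotated start, 5′ to 3′ on the strand of the gene, with matches on either strand to any of 5 motifs in capitals.
MET, chr7:116671946-116672195, plus strand: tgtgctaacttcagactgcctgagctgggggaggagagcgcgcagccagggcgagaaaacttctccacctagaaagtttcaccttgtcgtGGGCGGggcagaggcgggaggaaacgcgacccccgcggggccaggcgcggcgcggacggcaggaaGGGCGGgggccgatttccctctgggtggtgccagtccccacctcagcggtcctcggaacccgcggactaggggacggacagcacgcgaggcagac
AXL, chr19:41218973-41219222, plus strand: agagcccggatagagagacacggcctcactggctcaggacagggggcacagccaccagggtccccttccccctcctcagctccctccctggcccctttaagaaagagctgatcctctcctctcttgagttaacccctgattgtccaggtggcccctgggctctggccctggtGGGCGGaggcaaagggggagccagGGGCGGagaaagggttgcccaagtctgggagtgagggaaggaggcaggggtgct
TEK, chr9:27108975-27109224, plus strand: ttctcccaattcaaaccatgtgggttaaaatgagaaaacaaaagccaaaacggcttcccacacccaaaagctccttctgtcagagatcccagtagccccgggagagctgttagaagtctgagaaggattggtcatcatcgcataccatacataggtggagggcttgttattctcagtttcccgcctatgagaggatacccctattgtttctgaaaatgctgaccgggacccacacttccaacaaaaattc
CSF1R, chr5:150113366-150113615, minus strand: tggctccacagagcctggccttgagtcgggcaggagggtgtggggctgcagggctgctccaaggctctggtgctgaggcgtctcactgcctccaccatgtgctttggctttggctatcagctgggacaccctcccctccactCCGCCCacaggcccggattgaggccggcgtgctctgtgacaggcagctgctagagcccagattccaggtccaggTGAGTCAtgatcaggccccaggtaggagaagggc
FGFR3, chr4:1793043-1793292, plus strand: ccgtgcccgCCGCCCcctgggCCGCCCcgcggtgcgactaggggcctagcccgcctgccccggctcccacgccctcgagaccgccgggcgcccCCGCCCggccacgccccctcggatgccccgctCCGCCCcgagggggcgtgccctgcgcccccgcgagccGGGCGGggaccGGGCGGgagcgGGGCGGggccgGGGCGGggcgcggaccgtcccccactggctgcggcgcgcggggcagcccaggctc

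The motifs searched were the GC box GGGCGG, the AP-1 site TGANTCA, the ETS core CCGGAA, the TATA box TATAAA and the E-box CACGTG. FGFR3, the receptor that rose, had 8 GC boxes and a GC content of 86.8%, where 42.6% of 35116 promoters held a GC box, 0.584% held 8 or more, and the median GC content was 58%. MET and AXL had 2 GC boxes each, at GC contents of 68.4% and 64.4%. CSF1R had 1 GC box and 1 AP-1 match, TGAGTCA, at positions -34 to -28 counted from the start, and 6.57% of promoters held an AP-1 match. TEK, the receptor that fell most on average and with SHP2 miR1, had none of the 5 motifs, as did DDR1 and 37.3% of promoters, and a GC content of 46.4%. Among the members not printed, FGFR2, IGF1R and MST1R had 3, 2 and 4 GC boxes, at GC contents of 78.4%, 81.2% and 70.8%. DDR1 had a GC content of 60.4%. MST1R had the only ETS match, which 14.5% of promoters held. A relation of base composition to the direction of a difference was not tested. None of the 9 had a TATA box (10.7% of promoters) or the E-box (6.34%) in this window. A match is a run of letters and was not tested as a binding site, and the start used by these cells was not measured.

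For the receptors that passed a test, the genes with the most similar profile were found by the root mean square distance over the 6 arrays, each gene taken relative to its control mean, among 13046 genes that were not dim. Nearest to TEK were INSC, CNTN3 and ITGA5, at distances of 0.114, 0.160 and 0.169 log2 units. Nearest to FGFR3 were CLU, SLC7A5 and SLC43A2, at 0.0892, 0.0968 and 0.0999. CSF1R was nearest to CSF3, GRAMD1B and MAP2K1, at 0.0683, 0.0930 and 0.0981. AXL was nearest to NOTCH2, KLF6 and H3-3B, at 0.0417, 0.0460 and 0.0581, and MET to FNDC3B, PTPDC1 and ELL2, at 0.0332, 0.0366 and 0.0383. These likenesses are descriptions of 6 arrays.

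The genes around the receptors were read from lists of the pathway. At an unadjusted p under 0.05 on average stood 20.9% of all genes, against which the unadjusted counts of the lists are to be read. Past the adjusted threshold on average stood 4.20% of all genes, 1.53% higher and 2.67% lower, and 8.60% with SHP2 miR1. Of 25 measured ligands, 0 passed on average in limma (2, or 8%, at an unadjusted p under 0.05), with a list median of 0.07. With SHP2 miR1, CSF1, the ligand of CSF1R, rose by 0.84 (SE 0.19, adjusted p = 0.0327) while its receptor fell. FGF5, an FGF receptor ligand, fell by 0.72 in that comparison (SE 0.19, adjusted p = 0.0452). Under SHP2 miR2 CSF1 was at 0.12 and FGF5 at -0.43, neither past the threshold. GAS6, HGF and the angiopoietins did not pass in any comparison with control, and 10 of the 25 ligands were dim. Of 16 genes that activate or bind ligands, 2 fell and 0 rose on average in limma (6, or 37.5%, at an unadjusted p under 0.05). PLAU, the protease urokinase, which can activate the HGF precursor, fell by 1.12 (SE 0.13, 2.18-fold, adjusted p = 0.00251), and IGFBP3, which binds insulin-like growth factors, fell by 0.79 (SE 0.15, adjusted p = 0.0241). The median of that list was 0.14.

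Of 13 co-receptors and shedding proteases, 2 fell and 0 rose on average in limma, with a median of -0.06. In that list 5, or 38.5%, had an unadjusted p under 0.05. Of all genes, 2.67% passed lower and 1.53% higher. NRP2, a semaphorin and growth factor co-receptor, fell by 0.71 (SE 0.13, adjusted p = 0.0225) and FLRT3, a membrane protein that binds FGF receptors, by 0.65 (SE 0.15, adjusted p = 0.0464). The shedding protease ADAM10 fell with SHP2 miR1 by 0.69 (SE 0.18, adjusted p = 0.0444). Its difference with SHP2 miR2 was -0.27 and did not pass. Among 12 close relatives of the receptors 0 passed on average in limma (2, or 16.7%, at an unadjusted p under 0.05), with a median of -0.09. TYRO3, of the same family as AXL, fell with SHP2 miR1 by 0.59 (SE 0.15, adjusted p = 0.0452). Its difference with SHP2 miR2 was -0.22 and did not pass. Of 15 other receptor tyrosine kinases 0 passed on average in limma (5, or 33.3%, at an unadjusted p under 0.05), with a median of 0.17. With SHP2 miR1, AATK rose by 0.71 (SE 0.17, adjusted p = 0.0344). KDR, a VEGF receptor that was dim, rose there by 0.60 (SE 0.15, adjusted p = 0.0418). Under SHP2 miR2 AATK was at -0.05 and KDR at 0.11, neither past the threshold.

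Of 21 docking proteins and adaptors, 1 fell and 0 rose on average in limma, with a median of -0.10. In that list 7, or 33.3%, had an unadjusted p under 0.05. Of all genes, 2.67% passed lower and 1.53% higher. IRS2, which docks signalling proteins at the insulin and IGF receptors, fell by 0.95 (SE 0.17, 1.94-fold, adjusted p = 0.0184). With SHP2 miR1, PLCG1, a phospholipase that binds activated receptors, fell by 0.90 (SE 0.18, adjusted p = 0.0206). SOS2, a RAS exchange factor, fell there by 0.73 (SE 0.16, adjusted p = 0.0291). Under SHP2 miR2 PLCG1 was at -0.39 and SOS2 at -0.31, neither past the threshold. Of 17 genes listed as receptor dampers, 1 rose and 2 fell on average in limma (6, or 35.3%, at an unadjusted p under 0.05). The list median was -0.04, and what each gene does to the receptors in these cells was not measured. LRIG3, a membrane protein with leucine-rich repeats, rose by 0.92 (SE 0.15, adjusted p = 0.0105). The ubiquitin ligases NEDD4 and CBL fell by 0.96 (SE 0.18, adjusted p = 0.0230) and 0.68 (SE 0.14, adjusted p = 0.0353). PTPN1, a phosphatase of several receptors, fell with SHP2 miR1 by 0.74 (SE 0.14, adjusted p = 0.0179). Its difference with SHP2 miR2 was -0.32 and did not pass. Of 21 genes named as past the threshold in these lists and in the marker lists, PLAU alone stayed past it with any array left out. The others each missed it without at least 1 array. FGF5, FLRT3, TYRO3, AATK, KDR, CBL and PECAM1 missed it whichever array was left out. Apart from leaving out arrays and a minimum log2 difference of 1, 10 of the 21 stayed past it in every alternative.

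**Figure D4:**
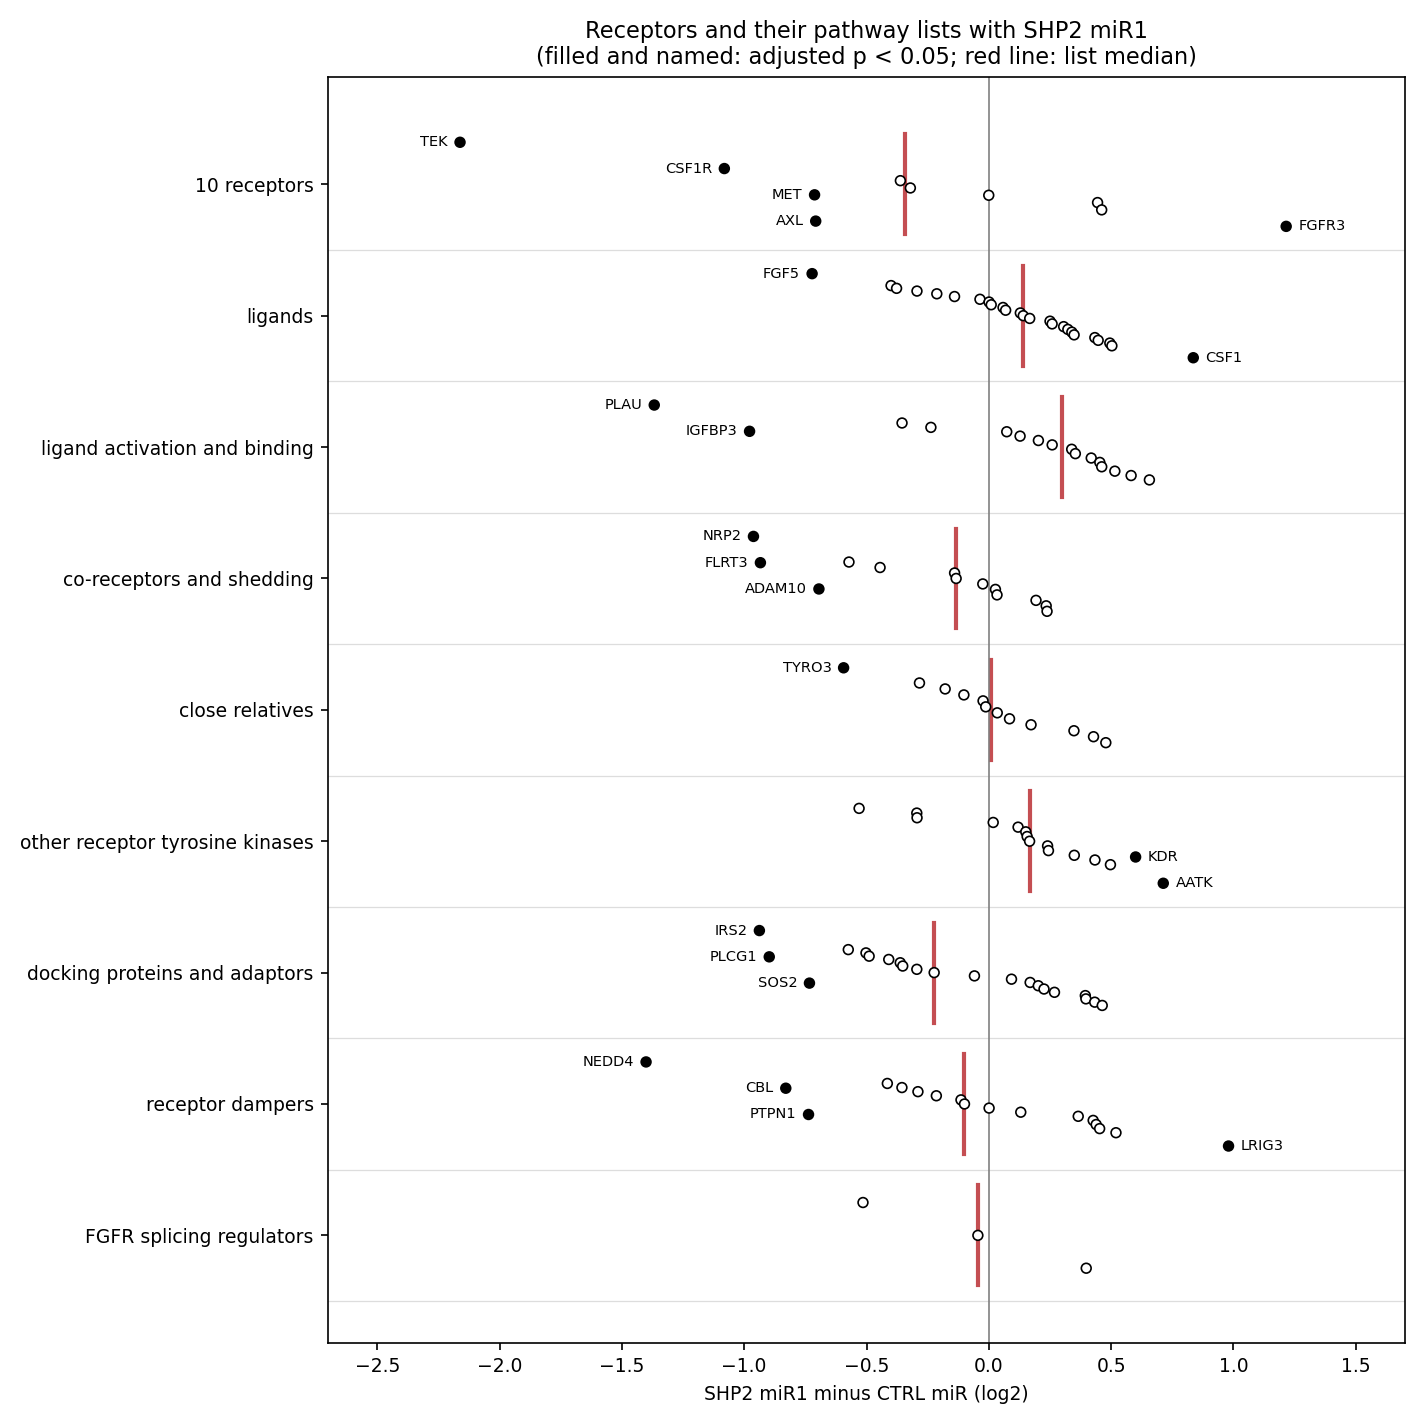
Difference between SHP2 miR1 and control on the log2 scale (horizontal axis) for the 10 receptors and the genes of each pathway list (rows); filled, named points passed the adjusted threshold and red lines are list medians. TEK at -2.16 and FGFR3 at 1.22 lie at the ends of the receptor row, and the list medians stay between -0.34 for the receptors and 0.30 for ligand activation and binding.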

How the data were processed

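Expression was measured on 6 arrays, 2 for each of 3 groups taken from the sample titles. The deposited values are the authors' log2 probe set values, and base 2 was inferred from their range. Per the submitters' processing notes, they were made with R 2.10 and oligo 1.8; the background correction, normalization and build were not stated there. Symbols came from the platform annotation: of 28869 probe sets, 19310 had 1 symbol, 1752 several and 7807 none. With the brightest probe set kept, 18377 genes remained. A model with 3 group means was fitted to all genes with limma 3.58.1 (R 4.3.3) and eBayes, two-sided, with Benjamini-Hochberg adjustment over all genes and a threshold of 0.05; every adjusted p comes from it. The script was tested on simulated data. The members, lists and tests were chosen with earlier results of these data known. All members were named; from each list up to 4 genes past the threshold on average and up to 3 more with a single SHP2 miR were named by smallest p, or 2 where none passed. The number of arrays limits the precision.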

Additional observations from a re-analysis of the deposited data

Results flagged for a closer look

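TEK differed between the constructs in the direct test: SHP2 miR2 minus SHP2 miR1 was 1.57 on the log2 scale (limma, adjusted p = 0.00499), with both SHP2 miR1 arrays below both SHP2 miR2 arrays. No group had enough arrays for a test of a single outlying array.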

How the results depend on the processing

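MET, AXL, TEK, CSF1R and FGFR3 kept their direction against control in all alternatives run; calls were less stable. Of 4 receptors past it on average, 1 remained with a minimum log2 difference of 1, and 1 to 4 with each array left out. Of 5 with SHP2 miR1, 3 remained with that minimum and 2 to 5 with an array left out. With SHP2 miR2 the count of 0 became 1 (AXL, adjusted p = 0.0177) with a mean-variance trend, and stayed 0 with any array left out. For SHP2 miR2 minus SHP2 miR1 the count of 1 became 2 with that trend (FGFR3, adjusted p = 0.0391), and was 0 to 1 with an array left out. Signs turned for differences near 0. For FGFR1 the trend over gene span, once removed, gave 0.0614 on average, 0.101 with SHP2 miR1 and 0.0307 with SHP2 miR2. With arrays left out FGFR1 lay between -0.130 and 0.108, -0.120 and 0.119, and -0.141 and 0.0971 in these comparisons. For SHP2 miR2 minus SHP2 miR1, FGFR1 was 0.0478 with quantile and 0.0560 with cyclic loess normalization and 0.0658 with centred medians, AXL -0.0233 and -0.0294 with those normalizations, and DDR1 0.0694 with centred medians. With an array left out FGFR1 ran from -0.0817 to 0.0382 and DDR1 from -0.106 to 0.0692. The cause was not tested. The 771 genes past the threshold on average became 1793 with a mean-variance trend, 192 with the minimum difference, and 108 to 512 with an array left out. The 1581 with SHP2 miR1 became 2786, 435 and 269 to 1308 (all genes called, SHP2 miR1 minus control miR). The 68 with SHP2 miR2 became 367 with the trend, 154 with dim genes left out, 39 with all probe sets tested and 0 to 60 with an array left out. The 35 between constructs became 446, 95 and 12 in the first 3 of these settings, 69 with centred medians, 55 with array weights, 12 with the compared groups alone and 0 to 15 with an array left out. The groups share replicate numbers, but no label ties them, and same-numbered deviations correlated at 0.0669, 0.140 and 0.0134. With the number as a block the receptor counts stayed 4, 5, 0 and 1, while all genes past the threshold went from 68 to 37 with SHP2 miR2 and from 35 to 12 between constructs. The fit on only the groups compared is the fit reported for the averaged comparison.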

Other observations

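Of 6 measured epithelial markers, KRT14, a basal keratin, was the member past the threshold on average, where 4.20% of all genes passed. KRT14 rose by 1.10 (SE 0.14, limma adjusted p = 0.00440). It also passed with SHP2 miR2 alone, at 1.02 (adjusted p = 0.0463), where 0.370% of all genes and none of the 10 receptors passed. That SHP2 miR2 call of KRT14 was lost without control replicate 1 and without control replicate 2. Regulators of FGF receptor splicing had 0 of 3 measured genes past the threshold on average in limma (1 at an unadjusted p under 0.05, where 20.9% of all genes stood). RBFOX2, a splicing factor, had -0.37 (adjusted p = 0.165) and ESRP2, an epithelial splicing factor, had 0.33 (adjusted p = 0.253). ESRP1 was not analysed here.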
